A study of Mus musculus with 6 samples.

Results

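The 10 genes described here encode proteins that the endoderm of the mouse yolk sac makes, and all but Mttp are secreted. They are the carrier proteins alpha-fetoprotein (Afp) and transthyretin (Ttr), the apolipoproteins Apoa1, Apoa2, Apoa4, Apob, Apoc2, Apoe and Apom, and Mttp, the microsomal protein that loads lipid onto ApoB. They were chosen by symbol from a table of 20280 genes, and all 10 were found, each with a mean over 10 normalized counts. The table compares FVB/N embryos at E8.5, with 3 RNA-seq libraries of Tip55+/+ (labelled wildtype) and 3 of Tip55Δ/Δ (labelled Tip55 knockout). Tip55Δ/Δ embryos are homozygous for a germline Kat5 allele whose last exons are fused without the introns between them, which removes the TIP55 splice isoform of this lysine acetyltransferase and leaves the others in place, and all embryos came from intercrosses of heterozygotes. The sources used here do not say whether a library was 1 embryo or a pool, nor how much of the yolk sac stayed on the embryos. The tissue label is embryo, and transcripts of yolk sac endoderm were abundant in both genotypes, whereas Alb, which marks hepatocytes, was near 0.

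The visceral endoderm of the yolk sac is a polarized epithelium that feeds the embryo before the placenta and the liver work. It takes up maternal proteins and lipids at its outer face through large endocytic receptors. It releases carrier proteins and lipoproteins made around ApoB toward the embryo, much as the fetal liver does later. Afp, Ttr and the apolipoproteins are classical products of this cell layer, and several of them are also made by gut endoderm and hepatocytes.

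The deposited table has 1 comparison for each gene and no value for a single library. Values below are therefore the mean normalized count of each genotype, which was recovered from 2 ratios in the table as described with the processing. A ratio is Tip55Δ/Δ over Tip55+/+, and its 95% exact binomial interval covers counting error only. The spread between the 3 libraries of a genotype could not be measured, and no test across embryos was run. Recovered means summed to 49138051 normalized counts per library in Tip55+/+ and 47211544 in Tip55Δ/Δ embryos, and the depth of single libraries is unknown. Kat5 itself, counted over all isoforms, had 2218 normalized counts in Tip55+/+ and 1615 in Tip55Δ/Δ embryos, which says nothing of the TIP55 isoform alone.

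All 10 genes had a lower mean in Tip55Δ/Δ embryos, and the interval of the ratio lay below 1 for each. Of these, 6 were lower by more than 1.5-fold (Apoa2, Afp, Apoa4, Apoa1, Apom and Ttr), and 0 were higher by that much. Over all 15920 genes with a mean of at least 10, 5.74% were lower by more than 1.5-fold and 7.54% were higher. The median log2 ratio of the 10 genes was −0.74, a ratio of 0.599, against −0.00 over all genes with a mean of at least 10. Together they held 156669 normalized counts in Tip55+/+ and 96644 in Tip55Δ/Δ embryos (ratio 0.617, interval 0.614 to 0.620), or 0.319% and 0.205% of all recovered counts.

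None of the 10 genes (0 of 10) passed a PPDE of 0.95, the posterior probability of differential expression that EBSeq gives in the deposited table. For 9 of the 10 it was under 0.05, so for these EBSeq gave equal expression a probability above 0.95. How many of all genes had a PPDE under 0.05 was not counted. PPDE is the only measure in the table that took the replicates into account. Of all genes in the table, 7.11% passed it with a lower value in Tip55Δ/Δ embryos and 5.25% with a higher one. Among the 185 genes with a Tip55+/+ mean of at least 1000 that were lower by more than 1.5-fold, 67.0% passed, and 5 of the 10 genes (Afp, Apoa1, Apoa4, Apom and Ttr) were in that class and did not. In that class 19 genes had a PPDE under 0.05, these 5 among them. The differences below therefore lie outside counting error and were not called across embryos.

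**Figure D1:**
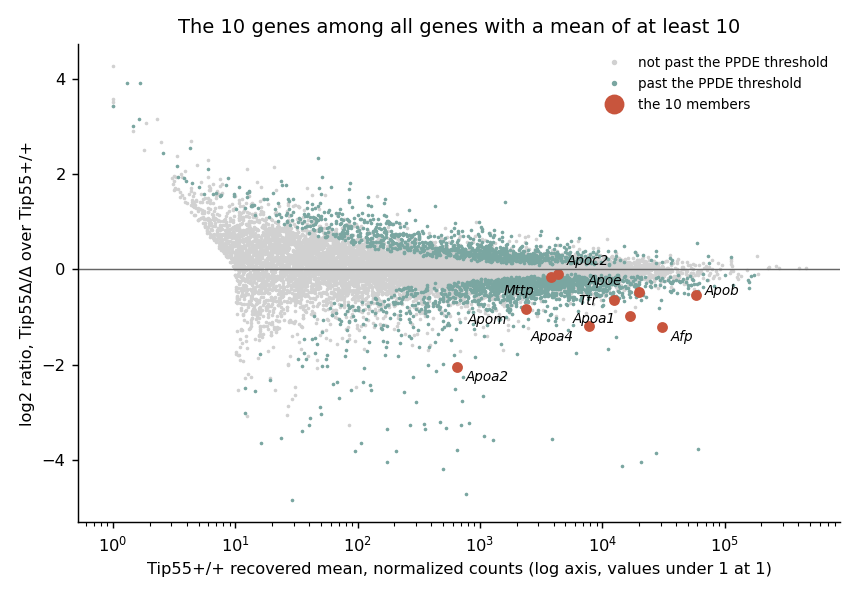
Each point is a gene whose mean reached 10 normalized counts, with its Tip55+/+ mean on the horizontal axis (log scale) and its log2 ratio of Tip55Δ/Δ over Tip55+/+ on the vertical axis. Genes past the PPDE threshold are in green and the 10 genes in red. Apoa2, Afp, Apoa4 and Apoa1 lie below nearly all genes of similar abundance, between −2.04 and −0.98, and none of the 10 is past the threshold.

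The promoters of Apoa2, the gene with the lowest ratio of the 10, and of Afp, the most abundant carrier, are shown side by side. Each line gives the 120 bases before the RefSeq start of the gene (GRCm38.p6), at chr5:90490594-90490713 for Afp and chr1:171224934-171225053 for Apoa2, both on the plus strand. Capitals mark the letters TATAAA in the Afp line, 7 to 2 bases before the start, and a forkhead motif in the Apoa2 line, 77 to 71 bases before the start. The start that GENCODE gives for Afp lies 23 bases from the RefSeq start.
Afp: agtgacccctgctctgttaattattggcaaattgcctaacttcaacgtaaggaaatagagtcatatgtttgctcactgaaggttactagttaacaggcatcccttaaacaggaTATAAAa
Apoa2: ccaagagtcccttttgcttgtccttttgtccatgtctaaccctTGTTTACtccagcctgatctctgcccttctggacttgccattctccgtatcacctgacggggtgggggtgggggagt

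Windows of 250 bases before to 50 after the start were on hand for 9 of the 10 genes, all but Ttr. Searched on both strands, the forkhead motif TGTTTAC was in 1 (Apoa2), against 3.65% of all 32851 RefSeq windows. The TATA motif TATAAA was in 3 (Afp, Apoa2 and Apob), against 13.6%. It lay 7 to 2 bases before the start in Afp, 212 to 207 in Apoa2 and 60 to 55 in Apob. CAAAGTCC, a short form of the site of HNF4, was in 0 of the 9 and in 1.42% of all windows. The GATA motif AGATAA was also in 0 of the 9, against 11.2%. These are matches of letters and not measured binding sites.

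Among the carrier proteins, Afp differed most. Afp, the main serum protein of the early embryo and a relative of albumin, lies on chr5:90490737-90508907 (GRCm38, plus strand, ENSMUSG00000054932.6). It had 30639 normalized counts in Tip55+/+ and 13317 in Tip55Δ/Δ embryos (ratio 0.435, interval 0.430 to 0.440). It ranked 200 of all genes by mean in Tip55+/+ and 582 in Tip55Δ/Δ embryos. Of 7602 genes with a Tip55+/+ mean of at least 1000, 21 had a ratio as low as that of Afp or lower, itself included. Ttr, which carries thyroxine and, bound to Rbp4, retinol, lies on chromosome 18 from 20665280 to 20674321 (plus strand, ENSMUSG00000061808.4). Its mean was 12550 in Tip55+/+ and 8041 in Tip55Δ/Δ embryos (ratio 0.641, interval 0.630 to 0.651). The interval of Ttr lies wholly above that of Afp, so the carriers were not lower by the same factor within counting error.

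Apoa1, Apoa2, Apoa4 and Apom, which ride on high density particles, were each lower by more than 1.5-fold. Apoa1, their main structural protein and the cofactor of the enzyme Lcat, lies on chr9:46228580-46230466 (plus strand, ENSMUSG00000032083.8). It averaged 16882 normalized counts in Tip55+/+ and 8573 in Tip55Δ/Δ embryos (ratio 0.508, interval 0.500 to 0.515). Apoa2, the second protein of these particles, lies on chr1:171225054-171226379 (plus strand, ENSMUSG00000005681.12) and was the least abundant of the 10 genes. It had 644 normalized counts in Tip55+/+ and 156 in Tip55Δ/Δ embryos (ratio 0.243, interval 0.219 to 0.269), the lowest ratio of the 10. Apoa4, which is made with lipid absorption and rides on lipoproteins, lies on chr9:46240696-46243459 (plus strand, ENSMUSG00000032080.6). It had 7778 and 3406 normalized counts (ratio 0.438, interval 0.428 to 0.448). Its ratio and that of Afp have overlapping intervals. Apoa4 shares exon bases with Gm10680 and Gm47528 on the other strand, and the libraries do not keep strand, so reads of these genes cannot be told apart there. Apom, a lipocalin of high density particles that binds sphingosine-1-phosphate, lies on chr17:35128997-35132050 (minus strand, ENSMUSG00000024391.7). Its mean was 2363 in Tip55+/+ and 1323 in Tip55Δ/Δ embryos (ratio 0.560, interval 0.538 to 0.582).

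Apob and Apoe were lower by less than 1.5-fold. Apob, the large protein around which the lipoproteins released by visceral endoderm are made, lies on chr12:7977648-8016835 (plus strand, ENSMUSG00000020609.14). With 57848 normalized counts in Tip55+/+ and 40111 in Tip55Δ/Δ embryos (ratio 0.693, interval 0.688 to 0.699), it was the most abundant of the 10 by count. Apoe, a ligand of the lipoprotein receptors, lies on chr7:19696109-19699188 (minus strand, ENSMUSG00000002985.16). It had 19834 normalized counts in Tip55+/+ and 14256 in Tip55Δ/Δ embryos (ratio 0.719, interval 0.710 to 0.728). With the trend of the ratio on transcript GC content removed, the log2 ratio of Apoe was −0.24 in place of −0.48.

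Apoc2 and Mttp were close to 1. Apoc2, the activator of lipoprotein lipase, lies on chr7:19671579-19677941 (minus strand, ENSMUSG00000002992.17), and had 4335 normalized counts in Tip55+/+ and 4050 in Tip55Δ/Δ embryos (ratio 0.934, interval 0.911 to 0.958). Its exons share 646 bases with Gm44805, a gene on the same strand, and counts may be split between them. Mttp lies on chr3:138089854-138144968 (minus strand, ENSMUSG00000028158.14). It had 3795 and 3410 normalized counts (ratio 0.899, interval 0.875 to 0.923), and shares 457 exon bases with Trmt10a on the other strand. As many as 2337 of the 7602 genes with a Tip55+/+ mean of at least 1000 had a ratio as low as that of Mttp or lower, and 3062 one as low as that of Apoc2. The sign of Apoc2 was not stable, since its log2 ratio of −0.10 became 0.05 once the trend of the ratio with transcript GC content was removed.

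**Figure D2:**
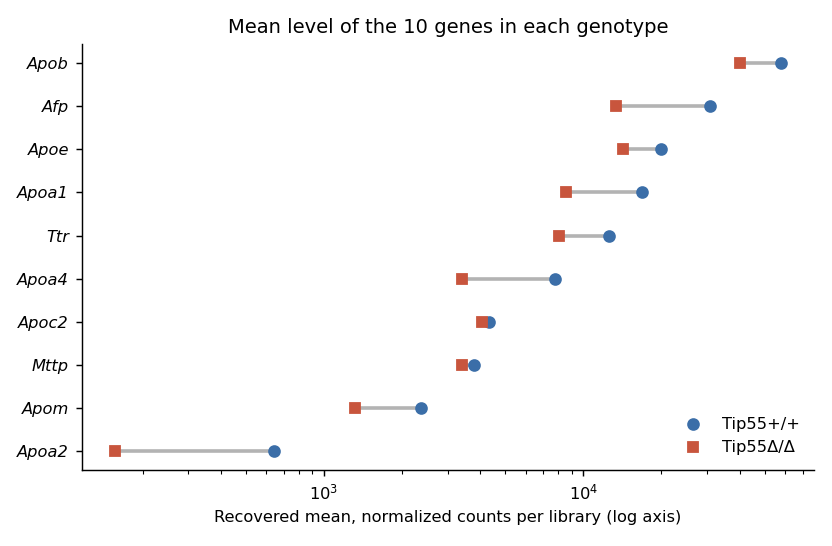
The recovered mean of each gene in normalized counts per library (horizontal axis, log scale) is plotted for Tip55+/+ (blue circles) and Tip55Δ/Δ embryos (red squares), each a mean over 3 libraries with no error bar because the spread between libraries is not known. The red square lies to the left for all 10 genes, by the longest line for Apoa2 and with touching symbols for Apoc2.

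**Figure D3:**
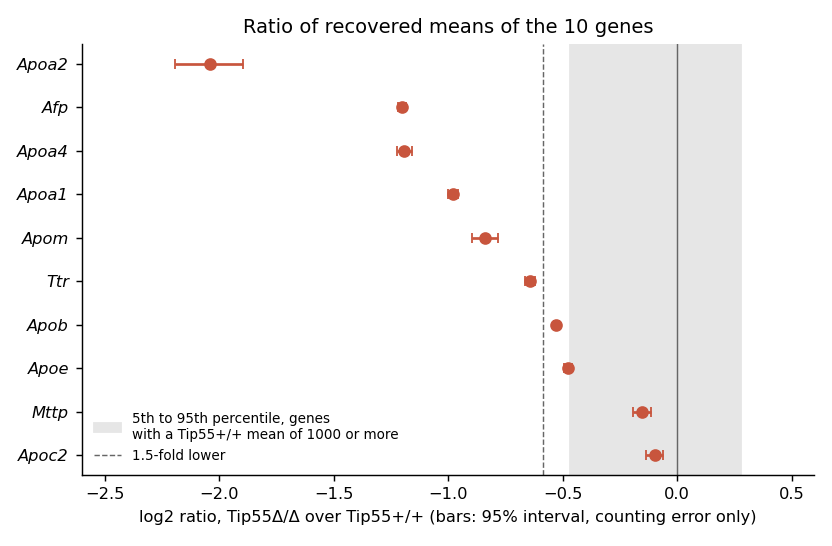
The log2 ratio of Tip55Δ/Δ over Tip55+/+ is plotted for each gene, with bars for the 95% interval of counting error. The grey band spans the 5th to 95th percentile of genes with a Tip55+/+ mean of at least 1000, from −0.47 to 0.28, and the dashed line marks 1.5-fold lower. Mttp and Apoc2 lie inside the band, and the other genes lie at its lower edge or below it.

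Since the ratios differed between genes by more than counting error, the make-up of the group differed between the pooled means of the genotypes. The spread of these shares between embryos is not known. Apob made up 36.9% of the counts of the 10 genes in Tip55+/+ and 41.5% in Tip55Δ/Δ embryos. The share of Afp was 19.6% and 13.8%. Apoe went the way of Apob, with 12.7% and 14.8%, and Apoa1 the way of Afp, with 10.8% and 8.87%. Counts of a long transcript such as that of Apob exceed those of a short one at equal abundance, so levels of different genes were also compared per kb of the longest annotated transcript. On that scale in Tip55+/+ embryos, Apoa1 was highest at 16311 normalized counts per kb, followed by Afp at 14852, Apoe at 14087 and Ttr at 10582. Apoc2 had 5963, Apoa4 4285 and Apob 4152 normalized counts per kb. Apom had 2332, Apoa2 1243 and Mttp 958, the lowest per kb of the 10. In Tip55Δ/Δ embryos the highest level per kb was that of Apoe, at 10125, and Afp came after Apoe, Apoa1 and Ttr, at 6455. The order of the top genes rests on the transcript length used. With the median length of the transcripts of each gene, the Tip55+/+ level of Afp was 44341, that of Apoe 24277 and that of Apoa1 20625 normalized counts per kb.

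Of the 10 genes, Afp, Apoa1, Apoa4, Apoc2 and Apoe sit beside relatives, and the neighbours allow a comparison within a locus. In the cluster on chromosome 9, all 4 genes were lower in Tip55Δ/Δ embryos by more than 1.5-fold, although their levels span a wide range. Apoa5, a regulator of triglyceride clearance, had 143 normalized counts in Tip55+/+ and 70.9 in Tip55Δ/Δ embryos (ratio 0.495, interval 0.418 to 0.585). Apoc3, an inhibitor of lipoprotein lipase, had 61.7 and 38.1 (ratio 0.618, interval 0.484 to 0.782). The intervals of Apoa1, Apoa5 and Apoc3 overlap, and Apoa4 overlaps Apoa5 alone.

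In the cluster on chromosome 7 the ratios of Apoc1, Apoe and Apoc2 differed by more than counting error. Apoc1, which lies between Apoe and Apoc4, had 265 normalized counts in Tip55+/+ and 152 in Tip55Δ/Δ embryos (ratio 0.573, interval 0.510 to 0.644). Its interval is below that of Apoe, which is below that of Apoc2. Apoc4 had 5.33 and 5.83 normalized counts, and no difference was detectable at this depth (interval 0.542 to 2.36). On chromosome 5, Afp stands between 2 genes that were nearly silent. Alb, the gene of albumin and a defining marker of hepatocytes, had 3.18 normalized counts in Tip55+/+ and 1.79 in Tip55Δ/Δ embryos, and Afm was at or under the floor of 3 summed counts in both.

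**Figure D4:**
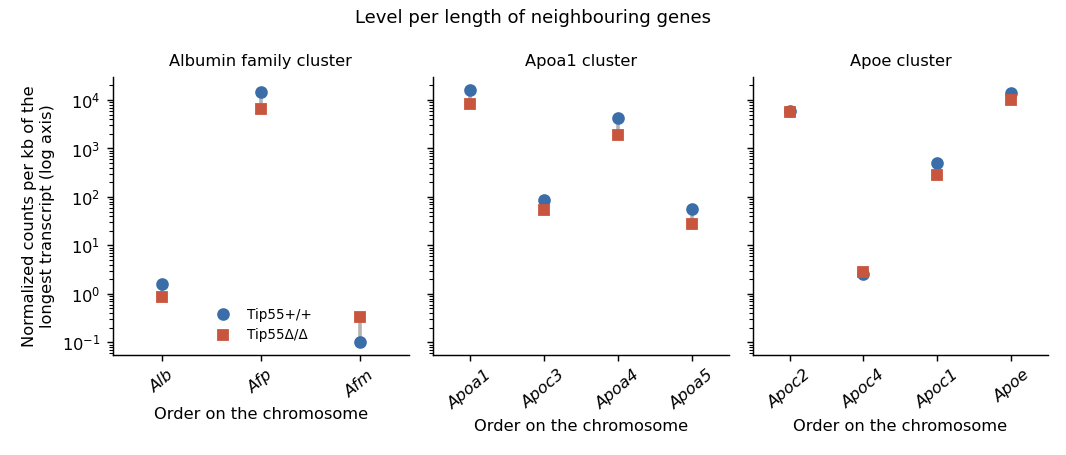
Normalized counts per kb of the longest transcript (vertical axis, log scale) are plotted for the genes of 3 clusters in their order on the chromosome, in Tip55+/+ (blue circles) and Tip55Δ/Δ embryos (red squares). Afp towers over Alb and Afm, the chromosome 9 genes are each lower in Tip55Δ/Δ embryos, and Apoc2 and Apoc4 are near equal in both genotypes. Afm lies under the floor of 3 summed counts in both genotypes.

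Many other plasma proteins that the same tissue can secrete also had lower means in Tip55Δ/Δ embryos. Of 29 such genes, 23 had a mean of at least 10, 16 of these were lower by more than 1.5-fold and 2 were higher. Their median log2 ratio was −0.89, while the summed mean of the list, most of it Igf2, was 177290 and 162386 normalized counts (ratio 0.916). Rbp4, the retinol carrier that Ttr binds, had 12739 normalized counts in Tip55+/+ and 6927 in Tip55Δ/Δ embryos (ratio 0.544, interval 0.535 to 0.553). Trf (transferrin), which carries iron, had 4773 and 2323 (ratio 0.487, interval 0.473 to 0.501). Spp2 had the lowest ratio of the list among genes with a mean of at least 100, with 688 and 210.1 normalized counts (ratio 0.306, interval 0.279 to 0.334). Igf2, a growth factor made by many tissues of the embryo, had 151114 and 149121 (ratio 0.987, interval 0.983 to 0.991). In this list 1 gene passed the PPDE threshold with a lower value, Serpind1 (heparin cofactor II), with 70.5 and 10.9 normalized counts.

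The retinol and thyroxine list, which holds Ttr and Rbp4, was mixed. Of its 9 genes 2 were lower by more than 1.5-fold, namely Ttr and Rbp4, and 1 was higher, Lrat, with 3.09 in Tip55+/+ and 10.8 in Tip55Δ/Δ embryos. One gene, Dio3, which inactivates thyroid hormone, fell past the PPDE threshold, from 285 to 194 normalized counts.

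The other apolipoproteins split. Of 8 listed, 6 had a mean of at least 10, 4 of these were lower by more than 1.5-fold and 1 was higher, and the median log2 ratio was −0.75. Besides the cluster neighbours, Clu (clusterin) averaged 1342 normalized counts in Tip55+/+ and 1832 in Tip55Δ/Δ embryos (ratio 1.36, interval 1.31 to 1.42). Apod rose from 74.9 to 118 (ratio 1.58, interval 1.33 to 1.87). Clu and Apod were the members of this list past the PPDE threshold. Both are made in many tissues outside the endoderm, and the source of their counts was not tested.

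The machinery that assembles and exports lipoproteins was closer to 1 than its cargo. Of 17 genes tested, 1 was lower by more than 1.5-fold, Mia2, a helper in the export of large cargo, with 133 normalized counts in Tip55+/+ and 87.7 in Tip55Δ/Δ embryos (ratio 0.658, interval 0.561 to 0.770). The median log2 ratio was −0.22. P4hb, the partner subunit of Mttp, had 34270 and 30393 normalized counts (ratio 0.887, interval 0.879 to 0.895), and the cargo receptor Surf4 had 14177 and 12132 (ratio 0.856, interval 0.844 to 0.868). Soat1, which makes cholesterol esters, had the highest ratio of the list, with 5706 and 6385 normalized counts (ratio 1.12, interval 1.10 to 1.14). Past the PPDE threshold, 2 genes fell, the coat protein Sec24c from 10443 to 8579 and the lipid droplet protein Plin2 from 2797 to 1955 normalized counts. The ratio of Plin2 (0.699, interval 0.676 to 0.723) was near that of Apob, while 5 of the 17 genes had a ratio over 1. Most of this machinery is used by every secreting cell. The values are those of embryos in bulk, and which cells they come from was not tested.

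Receptors, lipases and remodelling factors went both ways. Of 18 genes, 2 were lower and 2 higher by more than 1.5-fold, with a median log2 ratio of −0.28. Lcat, which esterifies cholesterol on particles that carry Apoa1, had 127 and 76.8 normalized counts (ratio 0.606, interval 0.512 to 0.715). Vldlr, a receptor that takes up particles with Apoe, rose past the PPDE threshold from 659 to 1119 (ratio 1.70, interval 1.61 to 1.80). Abca1, which passes cholesterol to Apoa1, fell past it from 1190 to 795 (ratio 0.668, interval 0.634 to 0.704). The large endocytic receptor Lrp2 (megalin) had 10130 and 12021 normalized counts (ratio 1.19, interval 1.17 to 1.20), and Lrp1 had 14281 and 11353 (ratio 0.795, interval 0.784 to 0.806). Lrpap1, the chaperone of both, had 4266 and 4553 (ratio 1.07, interval 1.04 to 1.09).

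The transcription factors of endoderm were lower on the whole by a smaller factor. Of 20 genes, 8 were lower by more than 1.5-fold and 0 were higher, with a median log2 ratio of −0.35. Hnf4a, a nuclear receptor that drives many liver and yolk sac genes, had 2346 and 1323 (ratio 0.564, interval 0.542 to 0.587). Nr2f2, the most abundant factor of the list, had 4404 and 3193 (ratio 0.725, interval 0.706 to 0.744). The early endoderm factors Gata4 (3188 and 3329) and Gata6 (2234 and 2183) were near 1, with ratios of 1.04 and 0.977. Past the PPDE threshold, 3 genes fell: Nr5a2 from 95.7 to 53.1, Onecut1 from 72.4 to 32.7 and Zhx2, a repressor of Afp after birth, from 913 to 578 normalized counts.

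Because RNA was taken from embryos in bulk, fewer yolk sac endoderm cells in a library and less RNA per cell cannot be told apart. Markers of that cell layer other than the 10 genes were present in both genotypes, and none was at 0. Of 20 such markers 19 are in the table, 7 of them were lower by more than 1.5-fold and 0 were higher, and their median log2 ratio was −0.46. Some of these markers were also counted in the lists above, among them Rbp4, Trf, Hnf4a, Lrp2, Gata4 and Gata6. Summed over the list, they held 112843 normalized counts in Tip55+/+ and 88772 in Tip55Δ/Δ embryos (ratio 0.787), compared with 0.617 for the 10 genes. Cubn (cubilin), the receptor partner of Lrp2, had 38093 and 28683 normalized counts (ratio 0.753, interval 0.746 to 0.760), and the endocytic adaptor Dab2 had 22992 and 20728 (ratio 0.902, interval 0.892 to 0.911). Fxyd2, a subunit that tunes the sodium pump, had the lowest ratio, with 408 and 172 (ratio 0.421, interval 0.380 to 0.468). Their part in the differences of the 10 genes was not tested.

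Other cell types of the conceptus gave further reference values. The 10 markers of parietal endoderm, the sister layer that lays down basement membrane, had a median log2 ratio of −0.01 and summed means of 83055 and 76112 normalized counts, with ratios from 0.782 (Col4a1) to 1.60 (Fst). The 11 of gut endoderm found in the table had a median of −0.20 and sums of 17990 and 17093, with ratios from 0.577 (Cer1) to 2.28 (Pyy). The hepatic bud list of 8 had sums of 5453 and 4559, and a median of −0.20 over the 7 whose mean reached 10. Of these, 3 were lower by more than 1.5-fold (Hnf4a at a ratio of 0.564, Cebpa at 0.496 and Serpina1a at 0.408) and 1 was higher (Ahsg, at 2.09). Both medians were nearer to 0 than that of the 10 genes.

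Markers of mesoderm, endothelium and trophoblast had medians nearer to 0 than that of the 10 genes. The 10 of extraembryonic mesoderm and allantois had a median log2 ratio of 0.19 and summed means of 28860 and 30531, with ratios from 0.551 (Pitx1) to 1.51 (Tbx4). The 10 of endothelium had a median of −0.20 and sums of 27361 and 24456, with ratios from 0.601 (Sox18) to 1.11 (Kdr). The 9 of trophoblast had a median of −0.11, with 4 lower and 1 higher by more than 1.5-fold. Krt7 fell past the PPDE threshold, at a ratio of 0.552. The sums of the 9, 14673 and 16143, were mostly Krt18, with 12280 and 14597 normalized counts (ratio 1.19).

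Blood of the yolk sac differed far more than its endoderm. The 9 erythroid markers in the table fell, with a median log2 ratio of −3.58, and all 9 passed the PPDE threshold. Their summed mean was 126860 in Tip55+/+ and 8956 in Tip55Δ/Δ embryos, with ratios from 0.0571 (Hbb-y, an embryonic globin) to 0.660 (Epor, the erythropoietin receptor). The decidua list was drawn up for maternal tissue that can stay on a dissected embryo. Whether the counts of its genes are maternal was not tested. Of the 10 decidua genes 1 was lower and 5 were higher by more than 1.5-fold. Their sums of 7003 and 6552 were mostly Hand2 (3121 and 3065), Des (1727 and 1633) and Cryab (1326 and 1371). The lower gene was the prolactin gene Prl8a2, which fell past the PPDE threshold from 503 to 27.6 normalized counts. The higher genes were Pgr, at a ratio of 1.54, and the granzymes Gzmd, Gzme, Gzmf and Gzmg. Gzmf and Gzmg rose past the PPDE threshold, at ratios of 15.1 and 15.2 from Tip55+/+ means of 1.65 and 1.31 normalized counts. The part of blood or of maternal tissue in the values of the 10 genes was not tested.

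**Figure D5:**
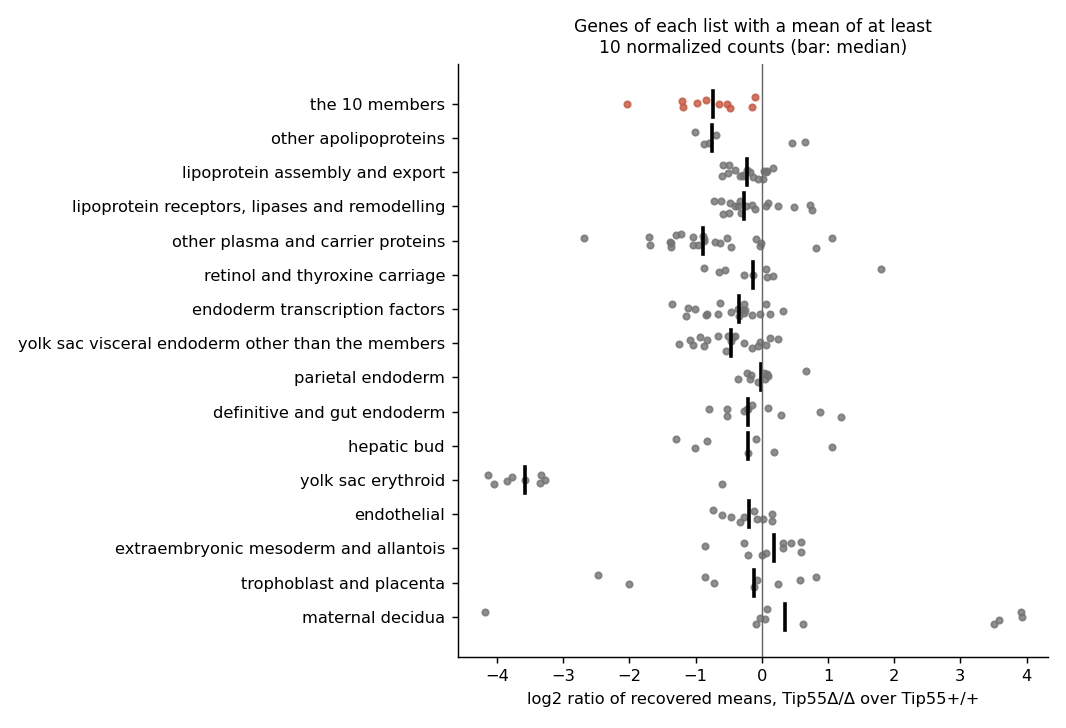
The log2 ratio of Tip55Δ/Δ over Tip55+/+ (horizontal axis) is plotted for each gene whose mean reached 10 normalized counts, by list, with the 10 genes in red and a bar at the median of each list. The medians of the 10 genes (−0.74), the other apolipoproteins (−0.75) and the other plasma proteins (−0.89) lie left of those of the export machinery (−0.22) and of the receptors (−0.28), and the median of the erythroid genes lies farthest left.

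Among the most abundant genes of the embryo, few were as low as the middle of the 10 genes. Of 930 other genes with a Tip55+/+ mean of 10000 or more, 399 had a log2 ratio within the wide range of the 10 genes and 10 had a log2 ratio at or below the median of the 10 genes. Only Afp, Apoa1, Ttr, Apob and Apoe reach that mean themselves, while the median is over all 10. Afp and Apoa1 lie below this median, and Ttr, Apob and Apoe lie above it. The 5 closest to that median, by the difference in log2 ratio, were Basp1 (−0.74), Hspg2 (−0.80), Gm12070 (−0.67), Hnrnpa0 (−0.82) and Ube2c (−0.65). This likeness rests on 1 ratio per gene.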

How the data were processed

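RNA of FVB/N embryos at E8.5 was sequenced at BGI from 3 mRNA-enriched libraries per genotype that do not keep strand. The authors aligned the reads to mm10, counted them by RSEM and compared the genotypes by EBSeq. Versions, annotation and filters are not given in the sources used here. The deposited table holds the authors' own comparison alone, which for each gene is PPDE, its complement, and the fold (a linear ratio of Tip55 knockout to wildtype) in 2 forms. None of these values is printed for a single gene. The ratio forms add different constants to the group means, one of them 0.01 and the other 0.514, as solved from 108 genes at 0 in a genotype, so each gene's pair gives both means. The ratios printed here are ratios of these recovered means, and therefore equal the direct fold of the table but for the constant of 0.01. PPDE was used to count genes past 0.95 or under 0.05. Totals leave out 8 genes with a rounding error over 5%.

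Exact binomial (Clopper-Pearson) 95% intervals come from means times 3 libraries, and 3 summed counts were taken as the floor. Lists were counted over genes with a mean of 10 or more in either genotype, past 1.5-fold. Symbols of 20005 genes matched GENCODE (GRCm38), and an older symbol was needed for 715 of those. Promoter windows are from RefSeq (GRCm38.p6). The 10 genes and the lists were chosen with earlier results of these data known. The rule for named genes took the 10 genes, the clusters, Kat5, in each list the 3 most abundant genes and the lowest and highest ratio among means of at least 100, and the 5 abundant genes closest to the median of the 10. In the lists of other cell types the extremes are named and the abundant genes enter the sums, and Hand2, Des and Cryab are named too. Outside the rule, genes past PPDE 0.95 and Ahsg, Cebpa, Serpina1a, Gzmd, Gzme and Lrat were named after their values were seen. Recovery and intervals were tested on simulated data. Versions were matplotlib 3.10.9, statsmodels 0.14.6, scipy 1.17.1, pandas 2.3.3, numpy 2.4.6 and Python 3.11.15. Some genes that the rule takes, and a motif fixed for the promoter search, are not reported here. Reads were not analysed here.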

Additional observations from a re-analysis of the deposited data

How the results depend on the processing

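The median log2 ratio of the 10 genes was −0.72 after centring on the median of genes with a mean of at least 100, −0.68 after scaling to equal totals, −0.69 when the totals left out the 10 genes and the globins, −0.70 with the trend on transcript GC content removed, and from −0.84 to −0.64 with each gene left out in turn. The log2 ratio of the summed means, chosen after seeing the data, was −0.70. The posterior form of the ratio changed no count of the 10 genes. Between 5 and 7 genes stayed past 1.5-fold under these scalings, with Ttr dropping under it for equal totals and Apob passing it without the GC trend. Past 2-fold 3 genes were lower, and 8 had a ratio under 0.8. Of 50 log2 ratios of single genes under 5 alternatives, 49 kept their sign, all but that of Apoc2 without the GC trend. Centring and the scalings to totals shift all genes alike, by 0.021 to 0.058. These shifts are smaller than the log2 ratio of any of the 10 genes (−0.098 for Apoc2), so they could change no sign. At PPDE thresholds of 0.9 and 0.99, as at 0.95, 0 of the 10 genes passed. Over all genes, 914 were lower past 1.5-fold, 1415 with no minimum mean, 516 with a minimum of 100, 2369 with a ratio under 0.8 and 309 past 2-fold. No library could be left out and no paired analysis was possible because the table holds no values per library. The intervals cover counting error only, and neither the spread between embryos nor the amount of yolk sac on them is known.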

Other observations

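Among the 185 genes with a Tip55+/+ mean of at least 1000 that were lower by more than 1.5-fold, 19 had a PPDE under 0.05 in the deposited table, and 5 of these are among the 10 genes described above. Another 5 are on the other endoderm and plasma protein lists (Rbp4, Trf, Hnf4a, S100g and Rhox5). Several of the rest are known from absorptive epithelia, and were named after their values were seen. Vil1 (villin), an actin bundler of microvilli, had 1706 and 1017 normalized counts in Tip55+/+ and Tip55Δ/Δ embryos. The zinc transporter Slc39a5 had 1364 and 685 and the folate receptor Folr1 1162 and 693. The spread between libraries behind these low probabilities was not measured here.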
